A study of Mus musculus with 16 samples.

Results

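The JAK-STAT and LIF receptor signalling genes described here are 7 genes: the receptor chains Lifr and Il6st, the kinase Jak1, the transcription factors Stat3 and Stat6, and the feedback inhibitors Socs1 and Socs3. They were chosen by name, with earlier results of these data known. Their counts set beside those of all probe sets are therefore a description. A probe set was counted where the array annotation gives 1 of these symbols as its single gene. This gave 14 probe sets of 12488 on the mouse U74Av2 array, and 7 genes of 8252 with a single-gene probe set: 5 probe sets for Lifr, 2 each for Il6st, Stat3 and Socs3, and 1 each for Jak1, Stat6 and Socs1. RNA of 16 samples was measured on 1 array each, in 4 groups of 3 embryonic stem (ES) cell arrays and 2 groups of 2 liver arrays. The ES groups were a line heterozygous for a Cdk4 mutation (Cdk4 +/-), its +/+ control line E14, a line heterozygous for an Abca1 mutation (Abca1 +/-) and its +/+ parental line ESVJ. Cdk4 encodes a cyclin D-dependent kinase of the G1 phase, and Abca1 a cholesterol exporter. E14 and Cdk4 +/- cells grew without feeders. ESVJ and Abca1 +/- cells grew on irradiated mouse embryonic fibroblasts and were then kept on gelatin for about 2 days after removal of the feeders. The livers came from mice labelled Abca1 +/- and from +/+ mice, all with 129/SvJ and C57BL6/J ancestry. No treatment is given for any group, and the labels do not state whether the ES medium held LIF, nor the age or sex of the mice. Each ES group is a single line, so a mutation and the other differences between 2 lines cannot be told apart, and line, feeder use and RNA isolation (RNeasy for E14, Trizol and RNeasy for ESVJ) cannot be told apart between E14 and ESVJ. The labels do not say whether the arrays of a group come from separate cultures, so the p-values measure the spread between these arrays, which may be technical.

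Leukaemia inhibitory factor (LIF) binds the receptor chain LIFR, which pairs with gp130, the product of Il6st and the shared signalling chain of the interleukin-6 family. JAK1 on gp130 then phosphorylates STAT3, which enters the nucleus and drives target genes, among them its own inhibitor Socs3. In mouse ES cells this route sustains self-renewal, and in hepatocytes the same gp130 and STAT3 module drives the acute phase proteins. STAT6 is the transcription factor of interleukin-4 and interleukin-13 receptors, and SOCS1 binds JAK kinases directly and restrains interferon and interleukin-4 signalling.

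All 7 genes have a promoter window in RefSeq for GRCm38.p6, 8 windows in all because Lifr has 2. These are called its first and second start site by position. In the RefSeq gene table Lifr begins upstream of both, at chr15:7090610, and Socs3 extends upstream of its window, to chr11:117970336. Start sites without a window may therefore exist. Each window covers 250 bases before and 50 bases after a start site and is given 5′ to 3′ on the strand of the gene. The windows of the genes that differed most between groups are shown so that they can be read beside the values. They are those of Stat6, Socs1 and Socs3 and both windows of Lifr. Capitals mark matches on either strand to TTCNNNGAA, the core bound by most STAT factors, to TTC and GAA with any 4 bases between them, the wider core preferred by STAT6, or to GAAA and GAAA with any 2 bases between them, the core of interferon response elements.
Stat6, chr10:127642736-127643035, plus strand: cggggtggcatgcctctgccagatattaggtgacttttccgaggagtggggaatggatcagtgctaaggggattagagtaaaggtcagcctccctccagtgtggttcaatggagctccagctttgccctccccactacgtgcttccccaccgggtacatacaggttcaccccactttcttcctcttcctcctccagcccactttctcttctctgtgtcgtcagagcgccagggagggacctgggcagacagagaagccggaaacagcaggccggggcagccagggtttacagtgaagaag
Socs1, chr16:10785487-10785786, minus strand: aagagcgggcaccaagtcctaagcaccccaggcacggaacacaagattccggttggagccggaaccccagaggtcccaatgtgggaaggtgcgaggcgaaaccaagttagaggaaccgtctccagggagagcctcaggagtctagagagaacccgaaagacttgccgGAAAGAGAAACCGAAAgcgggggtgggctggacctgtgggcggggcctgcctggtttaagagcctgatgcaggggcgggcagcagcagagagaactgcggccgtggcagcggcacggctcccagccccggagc
Socs3, chr11:117969317-117969616, minus strand: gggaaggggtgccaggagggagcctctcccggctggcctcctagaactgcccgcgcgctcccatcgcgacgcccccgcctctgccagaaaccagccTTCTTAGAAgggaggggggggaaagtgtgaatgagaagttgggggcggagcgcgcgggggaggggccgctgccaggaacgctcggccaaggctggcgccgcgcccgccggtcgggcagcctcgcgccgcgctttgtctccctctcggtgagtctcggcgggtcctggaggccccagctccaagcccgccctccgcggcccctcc
Lifr first start site, chr15:7129322-7129621, plus strand: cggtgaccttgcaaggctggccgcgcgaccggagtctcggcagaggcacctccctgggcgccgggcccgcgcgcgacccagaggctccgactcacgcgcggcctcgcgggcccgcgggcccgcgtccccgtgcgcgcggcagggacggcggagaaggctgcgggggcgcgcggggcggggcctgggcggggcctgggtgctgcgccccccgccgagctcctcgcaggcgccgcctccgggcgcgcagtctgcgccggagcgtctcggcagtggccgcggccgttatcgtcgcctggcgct
Lifr second start site, chr15:7140292-7140591, plus strand: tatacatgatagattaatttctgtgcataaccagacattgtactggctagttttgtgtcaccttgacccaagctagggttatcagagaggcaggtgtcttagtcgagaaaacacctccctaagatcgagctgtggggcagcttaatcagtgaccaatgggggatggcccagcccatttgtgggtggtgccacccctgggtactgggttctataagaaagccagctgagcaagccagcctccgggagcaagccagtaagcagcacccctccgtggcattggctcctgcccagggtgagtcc
The Socs3 window held 1 match to TTCNNNGAA, beginning 154 bases before the start site, and the other 7 windows held none. TTCNNNGAA was present in 8.3% of all 32851 windows of this length. The wider STAT6 core was in 6.95% of all windows and in none of the 8. The Socs1 window held 2 overlapping matches to the interferon response core, the first beginning 83 bases before the start site, a motif found in 3.44% of all windows and in no other of the 8. The Lifr windows differ in base composition, with 81.3% G and C at the first start site and 53.3% at the second. These are matches of letters, not measured binding, and the sources used here do not say which Lifr start site a probe set reports.

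Signals are MAS5 intensities, brought on every array to a 2% trimmed mean of 500. Differences between groups were taken after log2(signal + 32), a scale that understates changes of low genes, and "passed" means an adjusted p of at most 0.05 over all probe sets tested. Signals of different probe sets are not compared with each other. The median signal per array was between 126 and 169.9. Across probe sets, r ran from 0.970 to 0.990 within ES groups and from 0.580 to 0.635 between ES and liver arrays. ES cell markers summed to between 32721 and 62593 in the ES arrays and between 514 and 817 in the livers, and hepatocyte markers to between 319 and 679 in the ES arrays and between 176519 and 243543 in the livers. Cdk4 averaged 3678 ± 209 in Cdk4 +/- cells and 5716 ± 188 in E14 cells (SD, n = 3 each). Its log2 difference of -0.63 passed (adjusted p = 0.00436), and its second probe set was at -0.70 (adjusted p = 0.104). Abca1 averaged 110.4 ± 14.8 in Abca1 +/- cells and 141 ± 38.1 in ESVJ cells (SD, n = 3 each), which did not pass. In liver it averaged 627 ± 102.0 in the group labelled Abca1 +/- and 314 ± 18.5 in +/+ livers (SD, n = 2 each), and its 2 probe sets were at 0.92 and -0.996 (adjusted p = 0.191 and 0.366). Abca1 does not settle the label of these livers, which are therefore called livers labelled Abca1 +/-.

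One array stood apart. In replicate 1 of the livers labelled Abca1 +/- the 3′ over 5′ signal ratio, a sign of RNA degradation, was 4.10 for Gapdh and 8.23 for actin, against 0.80 to 1.19 and 1.04 to 2.14 on the other 15 arrays. Member values that rest on it are given with and without it.

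**Figure D1:**
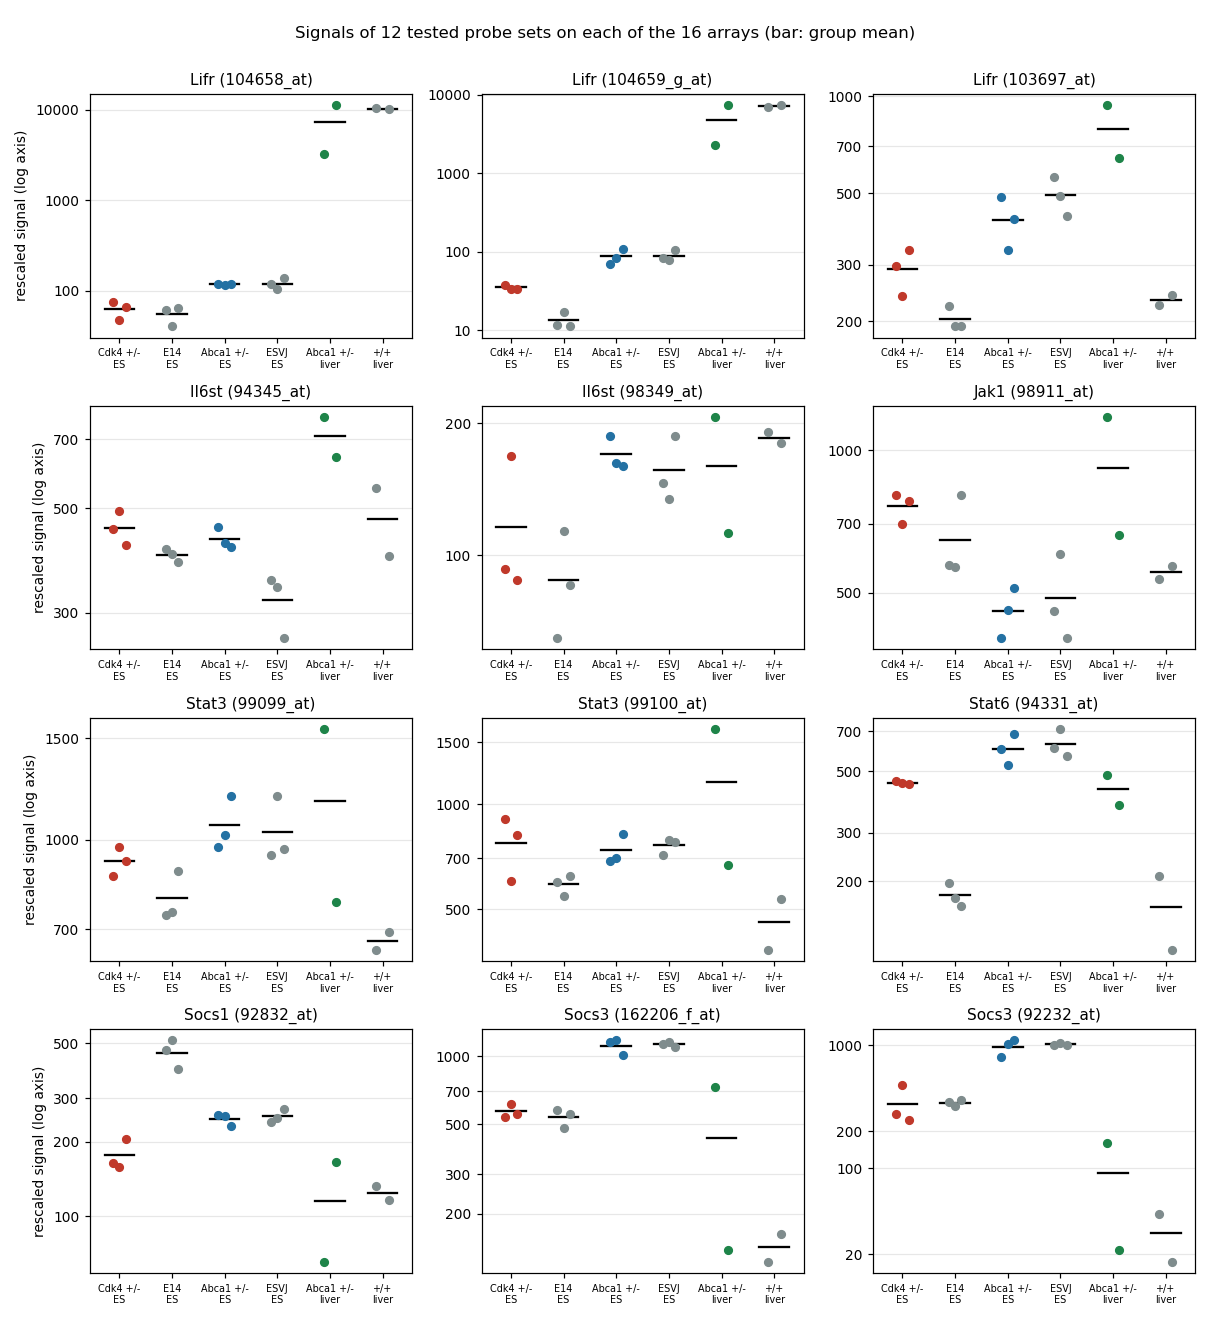
Rescaled signal, on a log axis, of the 12 probe sets with enough signal to be tested in at least 1 comparison, on each of the 16 arrays. Points are arrays and bars are group means. Stat6 lies lowest among the ES groups in E14 (163 to 198) and Socs1 highest there (393 to 514), and 2 Lifr probe sets are at 2252 or more on all 4 liver arrays.

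The Cdk4 +/- line was compared with its control line E14. Stat6 was higher and Socs1 lower in Cdk4 +/- cells, each by more than 2-fold, and the receptor chains, the kinase, Stat3 and Socs3 did not pass. Of 10 member probe sets tested, 1 was higher, 1 was lower and 8 did not pass, and over all 7349 probe sets 361 passed, which is 4.91%. The median log2 difference was 0.23 over the 10 member probe sets and 0.02 over all probe sets. The groups did not overlap for 4 of the 10 member probe sets and for 24.9% of all probe sets.

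Stat6, the factor of interleukin-4 signalling, had signals of 463, 452 and 451 in Cdk4 +/- cells and 198, 174 and 163 in E14 cells. The Cdk4 +/- arrays lay close to each other, and all were above the highest E14 array. Stat6 rose 2.32-fold, a log2 difference of 1.22 (95% interval 0.91 to 1.52, SE 0.14, adjusted p = 4.54e-04 by limma). Stat6 passed without any 1 of the 6 arrays, with adjusted p up to 0.00446, and under the other 9 settings. In a bulk RNA sample, fewer cells that express a gene and less RNA of it per cell cannot be told apart, here and in every comparison that follows.

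Socs1, the inhibitor that binds JAK kinases, had signals of 165, 159 and 206 in Cdk4 +/- cells and 472, 514 and 393 in E14 cells. All Cdk4 +/- arrays were below the lowest E14 array, so the groups did not overlap. Socs1 fell by 1.23 on the log2 scale (SE 0.15, adjusted p = 7.06e-04), and the 95% interval of the difference ran from -1.56 to -0.91. The E14 level was 2.35-fold the Cdk4 +/- level on this scale. Socs1 also passed without any 1 of the 6 arrays, with adjusted p up to 0.00598, and under the other 9 settings. Among 7349 probe sets Stat6 had the 6th and Socs1 the 8th smallest p.

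Stat6 and Cdk4 both lie on chromosome 10, with 23 protein-coding genes between them in the RefSeq gene table. This interval was looked at after the values were seen. Of these 23 genes 12 were measured, and none of them passed in either direction, beside 4.91% of all probe sets. With so few genes this count cannot be told apart from that share. Ddit3, a stress-induced transcription factor, was at 1.31 (SE 0.45, adjusted p = 0.113) and Tspan31, the gene next to Cdk4, at 0.67 (SE 0.24, adjusted p = 0.126). Lrp1, a lipoprotein receptor gene next to Stat6, was at 0.19 (SE 0.18, adjusted p = 0.586).

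Of the receptor chains, Lifr had signals of 298, 239 and 334 in Cdk4 +/- cells and 224, 193 and 194 in E14 cells by its tested probe set 103697_at. The groups did not overlap, and the log2 difference was 0.45 (95% interval 0.08 to 0.81, adjusted p = 0.152). The other 4 Lifr probe sets were below the filter in ES cells, with no signal above 75.8 in Cdk4 +/- or E14 cells. Il6st, the gp130 gene, had signals of 451, 494 and 417 in Cdk4 +/- cells and 409, 399 and 385 in E14 cells by 94345_at, a log2 difference of 0.18 (adjusted p = 0.513). Its second probe set, 98349_at, was at 0.29 (adjusted p = 0.528).

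Jak1, the kinase on gp130, had signals of 803, 699.8 and 781 in Cdk4 +/- cells and 571, 567 and 803 in E14 cells, a log2 difference of 0.24 (95% interval -0.12 to 0.60, adjusted p = 0.459). E14 replicate 3 was about as high as the highest Cdk4 +/- array, so the groups overlapped. Stat3, the factor activated by LIF, had signals of 867, 973 and 919 in Cdk4 +/- cells and 741, 749 and 883 in E14 cells by 99099_at. Its 2 probe sets were at 0.21 (adjusted p = 0.393) and 0.36 (adjusted p = 0.176), and 99100_at passed in a single case, without Cdk4 +/- replicate 2 (0.52, adjusted p = 0.0453). Socs3, the gp130 feedback inhibitor, had signals of 539.5, 615 and 556 in Cdk4 +/- cells and 575, 479.5 and 552 in E14 cells by 162206_f_at, with log2 differences of 0.09 and -0.08 by its 2 probe sets. The 95% intervals of these 2 differences were -0.17 to 0.34 and -0.48 to 0.32.

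**Figure D2:**
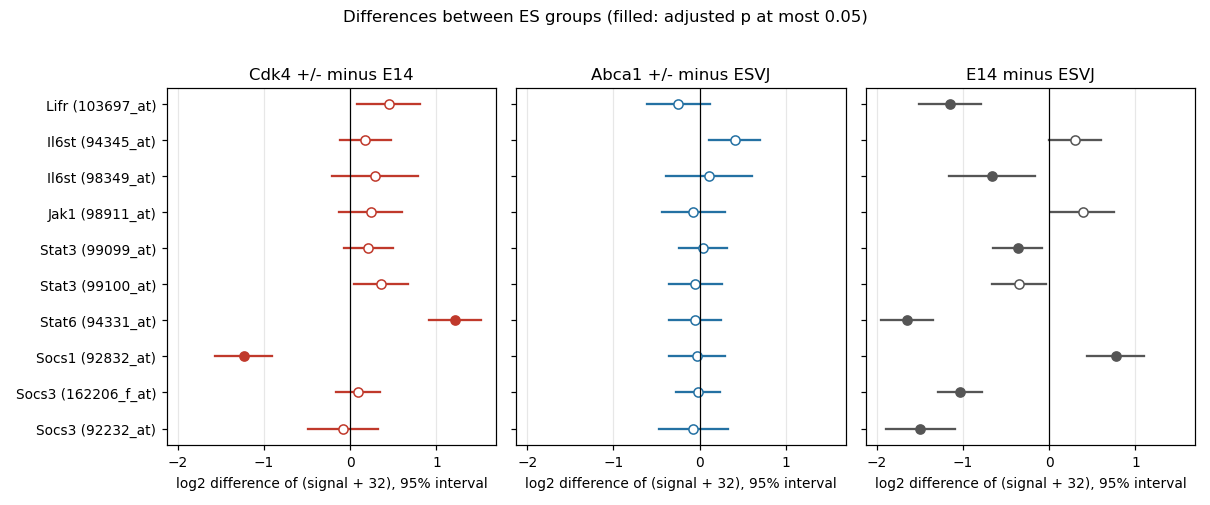
Log2 differences of signal + 32 with 95% intervals for the 10 member probe sets tested in ES cells, in 3 comparisons that each have 3 arrays per group. Filled points passed. Stat6 at 1.22 and Socs1 at -1.23 stand away from 0 in Cdk4 +/- against E14, none passed in Abca1 +/- against ESVJ, and 7 of 10 passed in E14 against ESVJ. Cdk4 +/- minus E14 and E14 minus ESVJ both use the E14 arrays, with opposite sign, so they are not independent.

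Other genes of the pathway came from lists of its ligands, receptors, kinases, inhibitors and targets. In Cdk4 +/- against E14, 7 of 21 listed STAT3 targets of ES cells rose, none fell and 14 did not pass. The list median was 0.41. Over all probe sets 4.91% passed in either direction, with a median of 0.02. Like the members, the list was chosen with earlier results of these data known. Pim1, a survival kinase, averaged 4548 ± 410 in Cdk4 +/- cells and 2645 ± 268 in E14 cells (SD, n = 3 each), a log2 difference of 0.78 (adjusted p = 0.00231). Tbx3, a T-box factor of self-renewal, averaged 216 ± 13.6 in Cdk4 +/- cells and 77.0 ± 19.0 in E14 cells (SD, n = 3 each), and rose by 1.20 (adjusted p = 0.00354). Klf4 and Sall4, factors of the pluripotency network, rose by 0.79 and 0.63 (adjusted p = 0.0075 and 0.0148). The count of 7 became 3 without E14 replicate 1 or Cdk4 +/- replicate 1 and 4 without Cdk4 +/- replicate 3, and it was 5 to 7 without each of the other arrays. It was 4 without a signal filter, without the intensity trend or with only the compared groups, and 2 with all 16 arrays in one fit. Among ES cell markers 1 of 10, Nanog, was higher and none lower. Nanog is also 1 of the 7 targets that rose. The summed signal of these markers was between 38037 and 44589 in Cdk4 +/- cells and between 32721 and 38558 in E14 cells. Of 9 tested endoderm markers 1, Sparc, was higher, and the sum over all 12 endoderm markers on the array was between 9498 and 10873 in Cdk4 +/- cells and between 7196 and 8397 in E14 cells. Apart from Nanog, the part of these markers in the list's count was not tested.

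Genes upstream of the targets are counted here beside the 4.91% of all probe sets that passed in this comparison. None of 5 receptor genes, 4 Janus kinase genes or 10 genes of the MAPK and PI3K branch of the LIF receptor passed. In that branch Akt1 and Map2k2 had the smallest p, at -0.47 (adjusted p = 0.0609) and -0.31 (adjusted p = 0.196). Of 4 STAT factor genes Stat6 alone passed. Of 12 inhibitor genes Pias2, a SUMO ligase that binds STATs, rose by 0.49 (adjusted p = 0.0424), Socs1 fell and 10 did not pass. Of 6 listed STAT6 targets Socs1 alone passed, as a fall, and Xbp1 and Bcl6 were at -0.41 (adjusted p = 0.0656) and 0.55 (adjusted p = 0.172).

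**Figure D3:**
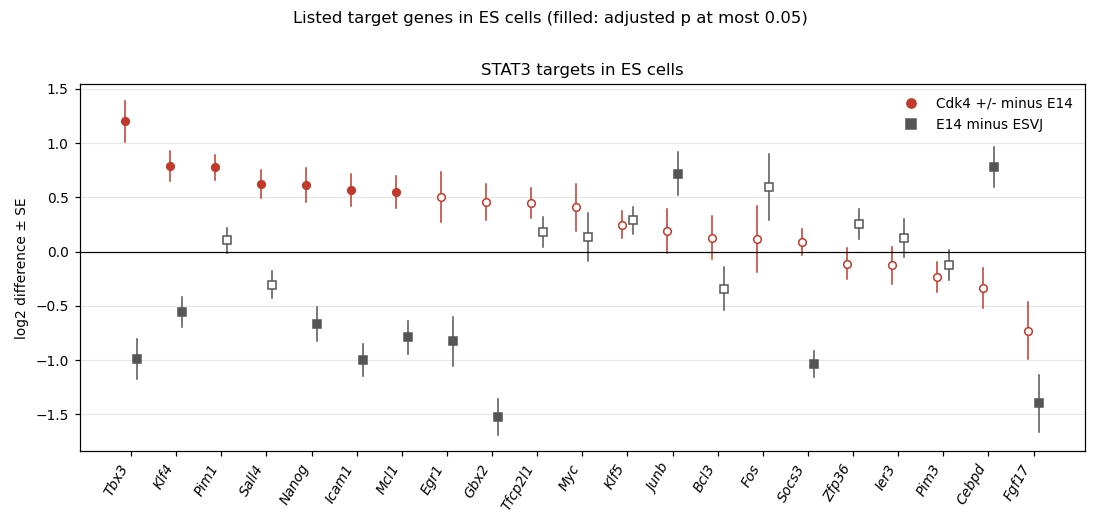
Log2 differences with SE of the listed STAT3 targets of ES cells, for Cdk4 +/- minus E14 (circles) and E14 minus ESVJ (squares). Filled symbols passed. Of 21 genes 7 rose in the first comparison, and 2 were higher and 9 lower in the second. Over all probe sets 4.91% and 42.6% passed in either direction. Both comparisons use the E14 arrays, with opposite sign, so they are not independent.

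The Abca1 +/- line was compared with its parent ESVJ. None of the 10 member probe sets passed, and over all 7349 probe sets 2 did, which is 0.0272%. Unadjusted p under 0.05 was reached by 241 of them. The groups did not overlap for 1 of the 10 member probe sets and for 7.93% of all probe sets. Il6st had the smallest p of the members, with signals of 457, 421 and 414 in Abca1 +/- cells and 352, 341 and 265 in ESVJ cells by 94345_at. All Abca1 +/- arrays were above the highest ESVJ array, and the log2 difference was 0.41 (SE 0.14, 95% interval 0.11 to 0.70, adjusted p = 0.9997). Its second probe set was at 0.11. Lifr was at -0.25 (95% interval -0.61 to 0.12). Stat6 had signals of 604, 526 and 686 in Abca1 +/- cells and 605, 714 and 566 in ESVJ cells, and the 95% interval of its difference was -0.36 to 0.25. Socs1 had signals of 258, 254 and 233 in Abca1 +/- cells and 241, 251 and 271 in ESVJ cells, with an interval of -0.36 to 0.30. Jak1, both Stat3 and both Socs3 probe sets were between -0.07 and 0.04, and their intervals reached from -0.48 to 0.33. None of the 21 STAT3 targets, 12 inhibitor genes, 10 MAPK and PI3K branch genes, 5 receptor genes, 4 kinase genes or 4 STAT factor genes passed. Il27ra, a receptor chain that pairs with gp130, was at -0.56 and Sos1, an exchange factor of the MAPK branch, at 0.53.

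Whether Cdk4 +/- minus E14 differs from Abca1 +/- minus ESVJ was tested as an interaction, the first difference minus the second. Each group is a single line, so this compares 2 differences between lines and does not isolate the mutations. Of the 10 member probe sets 2 passed, against 46 of 7349 probe sets, 0.626%. Stat6 differed by 1.27 (SE 0.20, adjusted p = 0.0148) and Socs1 by -1.20 (SE 0.22, adjusted p = 0.0242). Stat6 did not pass without Abca1 +/- replicate 2 or Cdk4 +/- replicates 1 or 3 (adjusted p from 0.0540 to 0.0583). Socs1 passed in 4 of 12 cases without 1 array, and its adjusted p was 0.0518 to 0.0808 in the other 8. The next smallest p was that of Lifr 103697_at at 0.69 (adjusted p = 0.186). Among the STAT3 targets Tbx3 and Klf4 passed, at 1.48 and 0.92 (adjusted p = 0.0234 and 0.0466).

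E14 and ESVJ are separate +/+ lines with unlike feeder use, and 42.6% of all probe sets passed between them (3130 of 7349). Of 10 member probe sets 1 was higher in E14, 6 were lower and 3 did not pass. Stat6, Socs3 and Lifr were lower and Socs1 was higher in E14. The median was -0.51 over the 10 member probe sets and -0.09 over all probe sets. The groups did not overlap for 9 of the 10 member probe sets and for 52% of all probe sets.

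Lifr, the LIF-binding chain, had signals of 224, 193 and 194 in E14 cells and 560.4, 492 and 426 in ESVJ cells by 103697_at, with no overlap. The log2 difference was -1.15 (SE 0.17, adjusted p = 8.35e-05). In order of mean, Lifr was at 493 ± 67.3 in ESVJ, 412 ± 76.4 in Abca1 +/-, 290.5 ± 47.8 in Cdk4 +/- and 203 ± 17.5 in E14 cells (SD, n = 3 each), and only Cdk4 +/- and E14 did not overlap among neighbours. The probe sets below the filter were also lower in E14: 104658_at had 60.8, 40.2 and 64.1 in E14 cells and 118, 105 and 137 in ESVJ cells, and 104659_g_at had 11.6, 17.0 and 11.1 in E14 cells and 82.3, 77.6 and 104 in ESVJ cells. For both, the groups did not overlap, and no test was made at these signals. The 2 Il6st probe sets had opposite signs, 0.30 by 94345_at (adjusted p = 0.096) and -0.66 by 98349_at (adjusted p = 0.0339). The call of 98349_at was lost without E14 replicates 1 or 3 or ESVJ replicates 1 or 3 (adjusted p from 0.0565 to 0.130).

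Jak1 had signals of 571, 567 and 803 in E14 cells and 458, 603 and 400.1 in ESVJ cells, which overlap, and a difference of 0.39 (adjusted p = 0.078). It passed without ESVJ replicate 2 (0.54, adjusted p = 0.026). Stat3 was slightly lower in E14 by 99099_at (-0.37, adjusted p = 0.0358) and at -0.35 by 99100_at (adjusted p = 0.063). The call of 99099_at was lost without E14 replicates 1 or 2 or ESVJ replicate 2 (adjusted p from 0.0986 to 0.149). Stat6 had signals of 198, 174 and 163 in E14 cells and 605, 714 and 566 in ESVJ cells. It fell by 1.65 on the log2 scale in E14 (SE 0.14, adjusted p = 3.5e-07), and the lowest ESVJ array was above the highest E14 array. In order of mean, Stat6 was at 629 ± 76.6 in ESVJ, 605 ± 79.7 in Abca1 +/-, 455 ± 6.49 in Cdk4 +/- and 178 ± 17.6 in E14 cells (SD, n = 3 each). The ranges of ESVJ and Abca1 +/- overlapped, and those of the other neighbours did not.

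Socs1 had signals of 472, 514 and 393 in E14 cells and 241, 251 and 271 in ESVJ cells, a log2 difference of 0.77 (SE 0.15, adjusted p = 0.00103). In order of mean, Socs1 was at 459 ± 61.5 in E14, 254 ± 15.5 in ESVJ, 248 ± 13.4 in Abca1 +/- and 177 ± 25.8 in Cdk4 +/- cells (SD, n = 3 each). Only ESVJ and Abca1 +/- overlapped among neighbours in this order. Socs3 had signals of 575, 479.5 and 552 in E14 cells and 1131, 1162 and 1096 in ESVJ cells by 162206_f_at. By 92232_at it had 344, 323 and 356 in E14 cells and 1012, 1046 and 998 in ESVJ cells. The log2 differences were -1.04 (SE 0.12, adjusted p = 7.2e-06) and -1.49 (SE 0.19, adjusted p = 1.81e-05). In order of mean by 162206_f_at, Socs3 was at 1129 ± 33.2 in ESVJ, 1114 ± 87.9 in Abca1 +/-, 570.0 ± 39.5 in Cdk4 +/- and 536 ± 49.8 in E14 cells (SD, n = 3 each). ESVJ and Abca1 +/- overlapped, as did Cdk4 +/- and E14, and these pairs lay apart. Stat6, Socs1, both Socs3 probe sets and Lifr 103697_at passed in all 6 cases without 1 array and under every other setting run for them.

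All 4 tested STAT factor genes were lower in E14: besides Stat3 and Stat6, Stat5a at -0.61 (adjusted p = 0.00805) and Stat4 at -0.63 (adjusted p = 0.0139). The kinase genes split, with Jak2 higher at 1.42 (adjusted p = 5.05e-05) and Tyk2 lower at -1.02 (adjusted p = 0.0346). Jak2 averaged 259 ± 26.0 in E14 cells and 77.9 ± 21.2 in ESVJ cells (SD, n = 3 each). The ESVJ mean lies under the filter of 100, and Jak2 was tested because its mean over the 12 ES arrays passed it. Of 12 inhibitor genes 4 were higher and 3 lower, among them the phosphatase gene Ptpn1 at 1.02 and Pias2 at -0.87. These list counts are read beside the 42.6% of all probe sets that passed in this comparison. Irs2, an adaptor of interleukin-4 and insulin receptors, was at 2.19 and Il4ra, the interleukin-4 receptor chain, at -0.72. Akt1, the kinase of the PI3K branch, was at 1.86 (adjusted p = 6.52e-08), with 1633 ± 179 in E14 cells and 427 ± 47.3 in ESVJ cells (SD, n = 3 each).

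Among 21 STAT3 targets of ES cells 2 were higher and 9 lower in E14 (median -0.30), with Gbx2, a homeobox factor, at -1.52, Icam1, an adhesion receptor, at -1.001, and Fgf17, a growth factor, at -1.40. Socs3 is itself on this list, as is the ES cell marker Nanog. Over all probe sets 42.6% passed in either direction, with a median of -0.09. Of 6 STAT6 targets 3 were higher and 2 lower, with the T cell factor Gata3 at 1.84 and the secretory factor Xbp1 at -1.41. Without 1 array at a time, 9 or 10 of the STAT3 targets were lower. ES cell markers were lower in E14 for 9 of 10 genes, and their sum was between 32721 and 38558 in E14 cells and between 54224 and 62593 in ESVJ cells. Of 4 tested fibroblast markers of feeder cells 1 was higher and 1 lower, and the sum over all 10 fibroblast markers on the array was between 2434 and 2537 in E14 cells and between 2326 and 2459 in ESVJ cells. The part of cell composition in these differences was not tested.

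Liver was set against ES cells with both +/+ lines averaged, in a fit of all 16 arrays that pools the small spread of ES arrays with the larger spread of livers. Of 7841 probe sets 5843 passed, 74.5%, and the median over all of them was -0.44. Quantile normalization moved this median to -0.16, so the differences below are read against it. Of 12 member probe sets 2 were higher in liver, 4 were lower and 6 did not pass. The 2 higher ones are both of Lifr and were tested only because livers are in the fit. The +/+ livers did not overlap the E14 and ESVJ arrays for 7 of the 12 member probe sets and for 69.4% of all probe sets.

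Lifr had signals of 10449 and 10108 in +/+ livers by 104658_at, against at most 137 in any E14 or ESVJ array. By 104659_g_at it had 6992 and 7297 in +/+ livers, against at most 104 in E14 or ESVJ cells. Both probe sets passed the signal filter only through the livers and were near background in ES cells, so no exact fold is given. Their log2 differences of 6.49 and 6.61 depend on the pseudocount and ran from 5.82 to 6.98 and from 5.64 to 7.67 under other settings, all of them past the threshold. By 103697_at Lifr had 225 and 241 in +/+ livers, between the E14 arrays (193 to 224) and the ESVJ arrays (426 to 560.4), with a difference of -0.40 (adjusted p = 0.0675), and of -0.0052 by quantile normalization. The probe sets of Lifr thus disagree in this comparison. Mouse liver is known to make a soluble LIF receptor from an alternative Lifr transcript, and the sources used here do not say which transcript a probe set detects. The other Lifr probe sets stayed below the filter, with 135 and 96.5 in +/+ livers by 104657_at and 45.4 and 30.5 by 97006_s_at.

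The Il6st probe sets, 94345_at and 98349_at, were at 0.37 and 0.55 (adjusted p = 0.0538 and 0.0566). By quantile normalization they were at 0.84 and 0.87 and passed (adjusted p = 1.76e-04 and 0.00168), and over the other settings that keep every array they passed under 2 of 8 and 3 of 7. The first passed without ESVJ replicate 1 (0.40, adjusted p = 0.0466) or +/+ liver replicate 2 (0.59, adjusted p = 0.017), and the second without ESVJ replicate 3 (0.61, adjusted p = 0.0449) or E14 replicate 2 (0.63, adjusted p = 0.0345). Jak1 had signals of 533 and 569.9 in +/+ livers, with a difference of -0.01 (95% interval -0.45 to 0.43), and by quantile normalization it was at 0.48 and passed (adjusted p = 0.0379). Stat3 99099_at was at -0.41 (adjusted p = 0.0667), and at 0.03 by quantile normalization. Stat3 99100_at was at -0.53 (adjusted p = 0.0561) and passed without +/+ liver replicate 2 (-0.76, adjusted p = 0.0459). Stat6 had signals of 209 and 113 in +/+ livers, the first above the E14 and below the ESVJ arrays and the second below both lines, and was lower by 0.99 on the log2 scale (adjusted p = 1.65e-04). Socs1 had 133 and 116 in +/+ livers, below every ES array, a difference of -1.26 (adjusted p = 6.7e-05). Socs3 had 122 and 162 in +/+ livers by 162206_f_at and 42.5 and 17.3 by 92232_at. All 4 values lay below every E14 and ESVJ array of the same probe set. By 162206_f_at the difference was -2.23 (adjusted p = 1.12e-05). By 92232_at, whose liver signals are near background, it passed at -3.37 and ran from -4.38 to -2.44 under other settings.

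The STAT3 target lists are themselves defined by tissue, one for liver and one for ES cells, so their directions here were set by that choice and are a description. All 8 hepatocyte markers were higher in liver (median 8.26) and all 10 ES cell markers lower (median -5.67). The fit of the ES arrays tested 1 hepatocyte marker and that of the livers 1 ES cell marker. Most of these markers thus passed the filter here through 1 tissue only. Of 20 acute phase genes 18 were higher in liver and 1 lower (median 4.05), beside 74.5% of all probe sets called in either direction, led by the haem carrier gene Hpx at 9.68 and the plasma protein gene Orm1 at 8.58. The fit of the ES arrays tested 7 acute phase genes, and Hpx and Orm1 were not among them. They were tested here only because livers are in the fit. Log2 sizes of genes below the filter in 1 tissue depend on the pseudocount. Of 21 STAT3 targets of ES cells none was higher and 19 were lower (median -2.26), with Nanog at -5.77 and Sall4 at -5.08. Of the receptor genes Il6ra, the interleukin-6 receptor chain, was higher at 0.998 (adjusted p = 0.00864), with 265 ± 12.2 in +/+ livers (SD, n = 2), 106 ± 57.2 in E14 cells and 139.6 ± 10.3 in ESVJ cells (SD, n = 3 each). Among 12 inhibitor genes 2 were higher and 8 lower, and all 10 genes of the MAPK and PI3K branch were lower. Of 3 genes of the interleukin-4 route the receptor chains Il13ra1 and Il4ra were higher, at 2.38 and 2.42. Il13ra1 was below the filter in the fit of the ES arrays and was tested here only because livers are in the fit.

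The livers labelled Abca1 +/- were compared with +/+ livers, 2 arrays each. No member passed (0 of 11), and 1 of 7160 probe sets did, 0.014%, while 1321 were at an unadjusted p under 0.05. The groups did not overlap for 6 of the 11 member probe sets and for 51.7% of all probe sets. Stat6 had signals of 484 and 377 in livers labelled Abca1 +/- and 209 and 113 in +/+ livers, with no overlap and a log2 difference of 1.30 (SE 0.38, adjusted p = 0.146). Lifr had 941 and 643 in livers labelled Abca1 +/- and 225 and 241 in +/+ livers by 103697_at, with a difference of 1.61 (SE 0.34, adjusted p = 0.111). Stat3 99100_at had 1643 and 669 in livers labelled Abca1 +/- and 383 and 536 in +/+ livers, with a difference of 1.16 (adjusted p = 0.213), and of 0.53 (adjusted p = 0.462) without replicate 1 of the livers labelled Abca1 +/-. The median over all probe sets was 0.11, and -0.02 by quantile normalization.

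Replicate 1 of the livers labelled Abca1 +/-, the array with the high 3′ over 5′ ratios, differed from replicate 2 in most members. Socs3 162206_f_at had 730.5 in that liver and 138 in replicate 2, and 122 and 162 in +/+ livers. Lifr 104658_at had 3268 in that liver and 11309 in replicate 2, and 10449 and 10108 in +/+ livers. Without replicate 1, Socs3 was at -0.03 where it had been at 1.06, Lifr 104658_at at 0.14 where it had been at -0.75, and Lifr 104659_g_at at 0.05 where it had been at -0.80. Jak1 was at 0.25 where it had been at 0.65, and Stat3 99099_at at 0.22 where it had been at 0.70. Il6st was at 0.43 and -0.59 by its 2 probe sets where it had been at 0.57 and -0.23, and Socs1 at 0.34 where it had been at -0.17. Stat6 was at 1.13 (adjusted p = 0.217) and Lifr 103697_at at 1.35 (adjusted p = 0.0952) without it. With replicate 1 as the only liver labelled Abca1 +/-, Socs3 162206_f_at was at 2.14, Stat3 99100_at at 1.79 and Lifr 104658_at at -1.64. With either of the 2 left out, the lone liver is assumed to vary like the +/+ livers. Leukocyte and Kupffer cell markers summed to between 5715 and 9188 in livers labelled Abca1 +/- and between 4732 and 5638 in +/+ livers, with 0 of 10 tested markers passing. Their part was not tested.

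**Figure D4:**
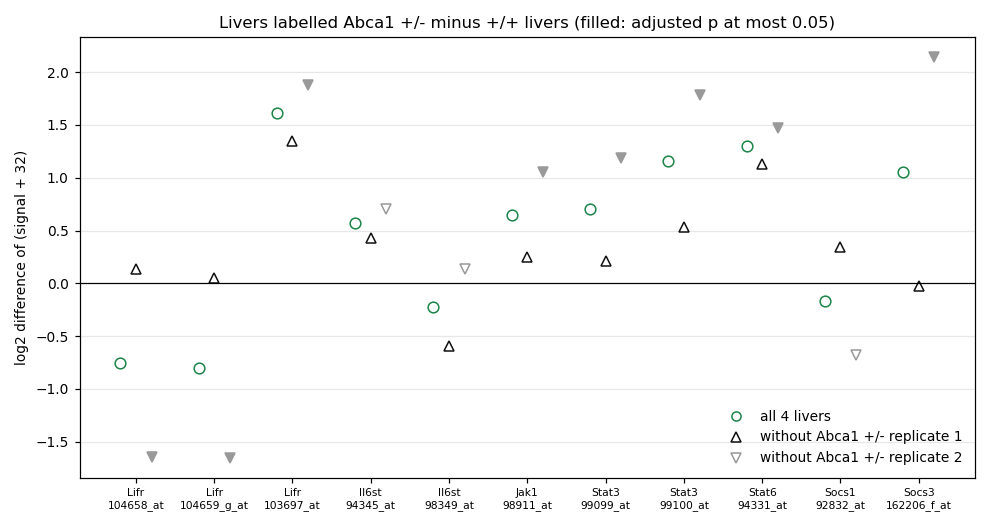
Log2 difference of livers labelled Abca1 +/- minus +/+ livers for the 11 tested member probe sets, with all 4 livers (circles), without replicate 1 (upward triangles) and without replicate 2 (downward triangles) of the livers labelled Abca1 +/-. Filled symbols passed. Stat6 and Lifr 103697_at lie above 1 in all 3 cases, and Socs3 runs between -0.03 and 2.14.

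The difference between the labelled liver groups minus that between Abca1 +/- and ESVJ cells was tested as an interaction. Of 12 member probe sets 2 passed, against 773 of 7841 probe sets, 9.86%. The test used the fit of all 16 arrays, which pools the small spread of ES arrays with the larger spread of livers. In the fit of the livers alone, the liver differences of Lifr 103697_at and Stat6 did not pass (adjusted p = 0.111 and 0.146 by limma). Lifr 103697_at differed by 1.86 (SE 0.30, adjusted p = 0.0024 by limma), and by 1.60 without replicate 1 of the livers labelled Abca1 +/-. By 104658_at and 104659_g_at the Lifr difference was -0.74 and -0.78 (adjusted p = 0.351 and 0.306), and 0.16 and 0.069 without that liver. Stat6 differed by 1.35 (SE 0.30, adjusted p = 0.0131), and by 1.19 without that liver, where it did not pass (adjusted p = 0.0549). It also did not pass without +/+ liver replicate 2 (0.98, adjusted p = 0.0787). Without replicate 2 of the livers labelled Abca1 +/-, Lifr 103697_at differed by 2.12 and Stat6 by 1.52. The median over all probe sets was 0.13, and -0.01 by quantile normalization.

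Across the 12 ES arrays the probe sets of a gene agreed to different degrees. The 2 Socs3 probe sets correlated with r = 0.96, the 2 Stat3 probe sets with r = 0.56 and the 2 Il6st probe sets with r = -0.17. The Lifr probe sets 103697_at and 104658_at correlated with r = 0.86 in ES cells. Between genes, Lifr and Stat6 had r = 0.89, Lifr and Socs3 r = 0.86, Jak1 and Socs3 r = -0.78 and Stat6 and Socs1 r = -0.75. The 12 arrays come from 4 lines and differences between lines enter every value, which are given as a description. Of 5591 genes compared in the same way, the closest in pattern to Stat6 were Tle4 (r = 0.96), Fam136a (r = 0.95) and Slc25a20 (r = 0.95). Those closest to Socs1 were Prelid1 (r = 0.93), Commd4 (r = 0.93) and Cmas (r = 0.92), and those closest to Socs3 were Sin3a, Aire and Thumpd1 (r = 0.99 each). Bub1, Mat2b and Wdr92 were closest to Lifr (r from 0.96 to 0.97), Psme4, Ifnar1 and Cds2 to Il6st (r from 0.82 to 0.90), Washc2, Nek6 and Jun to Jak1 (r from 0.94 to 0.97), and Pknox1, Svil and Nme6 to Stat3 (r = 0.92 each).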

How the data were processed

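RNA from 16 samples (12 ES cell and 4 liver) was hybridised to 1 Affymetrix mouse U74Av2 array each. The deposited values are MAS 5.0 signal intensities, scaled by the authors per the labels. The genome build behind the array design is not given in the sources used here. Each array was rescaled here to a 2% trimmed mean of 500, and 32 was added before log2. Control probe sets (66) and probe sets with a mean rescaled signal under 100 over the arrays of a fit were left out. Intensities were fitted with limma 3.58.1 in R 4.3.3 (lmFit, and eBayes with an intensity trend), with 1 fit of the 12 ES arrays, 1 of the 4 livers, and 1 of all 16 arrays for the comparisons across tissues. P-values were adjusted by the Benjamini-Hochberg method over all probe sets tested in each of the 7 comparisons, at a threshold of 0.05, and intervals are at 95%. The number of arrays limits the precision. The fit was tested on simulated data.

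The array annotation gave 1 gene for 10855 probe sets, several for 396 and none for 1237. The members and the gene lists were chosen with earlier results of these data known. All member probe sets are reported. Of a list, up to 4 genes with the smallest p among those that passed are named, or up to 2 where none passed, and each gene is represented by its probe set of highest mean signal. Genes of similar pattern are the 3 with the highest Pearson r over the ES arrays. The counts of the STAT3 target list under other settings were added after seeing the data. One other list of targets is not reported here. Settings tried were quantile normalization, pseudocounts of 1 and 100, no filter or a filter of 200, no intensity trend, other sets of arrays in the fit, excluding probe sets whose suffix marks possible cross-hybridisation, and leaving out each array in turn. Promoter windows came from RefSeq, GRCm38.p6.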

Additional observations from a re-analysis of the deposited data

Results flagged for a closer look

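For Stat6, Cdk4 +/- minus E14 and Abca1 +/- minus ESVJ differed in ES cells by an interaction term of 1.27 on the log2 scale. Cdk4 +/- minus E14 was 1.22 and Abca1 +/- minus ESVJ was -0.05. The same test differed for Socs1, with a value of -1.20, where Cdk4 +/- minus E14 was -1.23 and Abca1 +/- minus ESVJ was -0.03. The Stat6 call was lost without Abca1 +/- replicate 2 or Cdk4 +/- replicates 1 or 3, and the Socs1 call in most cases without 1 array. Neither passed with all 16 arrays in one fit. The Cdk4 and Abca1 pairs also differ from each other in feeder culture and RNA isolation.

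For Lifr (103697_at), the difference of livers labelled Abca1 +/- minus +/+ livers and that of Abca1 +/- minus ESVJ cells differed by 1.86, at 1.61 in liver and -0.25 in ES cells. For Stat6 they differed by 1.35, at 1.30 in liver and -0.05 in ES cells. Replicate 1 of the livers labelled Abca1 +/-, with its high 3′ over 5′ ratios, is part of both values, and without it they were 1.60 and 1.19. Lifr 104658_at and 104659_g_at were at -0.74 and -0.78 in the same comparison and did not pass. The tests used the fit of all 16 arrays. In the fit of the livers alone, the liver differences of Lifr 103697_at and Stat6 did not pass (adjusted p = 0.111 and 0.146 by limma).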

How the results depend on the processing

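Alternatives gave 1172 recomputed values of the 75 member results, and 39 of these values changed sign, all of them for values that had not passed. In Cdk4 +/- against E14, Stat6 and Socs1 passed under all 15 alternatives. The 361 probe sets became 196 without a filter, 227 without the intensity trend, 174 with only the compared groups and 35 with all 16 arrays, and 68 to 521 without 1 array (members 2 to 3). In Abca1 +/- against ESVJ the 2 became 1 without a filter, with a filter of 200 or with only the compared groups, 0 with all 16 arrays, and 1 in each of the 6 cases without 1 array. In liver the 1 became 0 by quantile normalization or without the trend, 3 without a filter, 1970 with all 16 arrays (members 4), and 9 to 1653 without 1 array (members 0 to 8). The 46 of the ES interaction became 16 without a filter (members 1), 19 without the trend, 1 with all 16 arrays (members 0), and 5 to 93 without 1 array (members 0 to 2). The 773 of the tissue interaction became 188 with only the compared groups (members 1), and 196 to 2234 without 1 array (members 1 to 9). Member counts without 1 array were 5 to 7 for E14 against ESVJ and 6 to 8 for liver against ES cells. The cause of these changes was not tested.

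Changes of sign without 1 array are given as ranges. In Cdk4 +/- against E14, Socs3 92232_at ran from -0.34 to 0.085. In Abca1 +/- against ESVJ, Jak1 ran from -0.20 to 0.081, Stat3 99099_at from -0.045 to 0.14, Stat6 from -0.14 to 0.038, Socs1 from -0.066 to 0.0099, Socs3 162206_f_at from -0.061 to 0.043 and Socs3 92232_at from -0.16 to 0.055. In liver, Lifr 104658_at ran from -1.64 to 0.14, Lifr 104659_g_at from -1.65 to 0.050, Il6st 98349_at from -0.59 to 0.14, Socs1 from -0.68 to 0.34 and Socs3 from -0.026 to 2.14. In the ES interaction, Il6st 98349_at ran from -0.062 to 0.33 and Socs3 92232_at from -0.27 to 0.16, and Socs3 92232_at was at 0.0048 with a pseudocount of 100. In liver against ES cells, Jak1 ran from -0.068 to 0.072, and quantile normalization gave 0.48 for Jak1 and 0.026 for Stat3 99099_at. In the tissue interaction, Lifr 104658_at ran from -1.63 to 0.16, Lifr 104659_g_at from -1.63 to 0.069, Il6st 94345_at from -0.064 to 0.39 (-0.018 by quantile normalization), Il6st 98349_at from -0.70 to 0.026, Socs1 from -0.65 to 0.38, Socs3 162206_f_at from -0.0040 to 2.16 and Socs3 92232_at from -0.099 to 1.74.

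No paired analysis was possible because the labels number no replicates in a way that pairs arrays across groups. Signals near background, as for Lifr in ES cells by 104658_at and 104659_g_at, give log2 differences that depend on the pseudocount. Each ES group is 1 line and each liver group 2 arrays, so the Abca1 liver fit has 2 residual degrees of freedom.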
